A study of Homo sapiens with 6 samples.

Results

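The 10 genes described here encode amino acid transporters of the plasma membrane, and they were selected by gene symbol (SLC7A5, SLC3A2, SLC1A5, SLC1A4, SLC38A1, SLC38A2, SLC7A1, SLC7A6, SLC6A9 and SLC43A1). All 10 were found among the 30618 genes with counts, and 9 of them were among the 16749 genes with enough counts to be tested. RNA-seq was performed in ARPE-19, an established cell line of human retinal pigment epithelium, kept in 50 mM glucose in all 6 libraries. In the NC group (n = 3) the cells carried a non-targeting control siRNA, and in the siEIF1 group (n = 3) they carried an siRNA against EIF1, an initiation factor that takes part in start codon selection. All cells were lipid-transfected, each group received a single siRNA sequence, and neither untransfected cells nor cells in normal glucose were analysed here, so the comparison is siEIF1 against NC within high glucose only. The study's methods describe the 3 replicates of a group as independent.

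Amino acid transporters of the solute carrier families move amino acids across the cell membrane by exchange, by cotransport with sodium or by facilitated diffusion. SLC3A2 (4F2hc) is the heavy chain that carries light chains such as SLC7A5 (LAT1) to the cell surface, and the resulting exchanger imports leucine and other large neutral amino acids, often against intracellular glutamine. Many of these genes are known targets of ATF4, the transcription factor of the amino acid response, and the amino acids they import are read by the mTORC1 kinase complex. In the eye, the retinal pigment epithelium forms the outer blood-retinal barrier and its transporters pass amino acids between the choroidal blood and the retina.

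After EIF1 knockdown, 5 of the 9 tested transporters fell and 0 rose (edgeR's quasi-likelihood test, Benjamini-Hochberg adjusted p under 0.05 over all tested genes). The share of all tested genes that fell by the same rule was 10.4%, and the share that rose was 10.2%. The members were chosen with earlier results of these data known, so the shares are a description and no list test was run. The 5 were SLC7A5, SLC3A2, SLC1A4, SLC38A1 and SLC6A9, and their levels in siEIF1 were 73.0% to 80.8% of the NC mean FPKM. None of the 9 passed the fold limits of the study's methods, a fold change below 0.5 (1.31% of all tested genes) or above 2 (0.4%). Without siEIF1 replicate 2 the number that fell was 3, because SLC38A1 (adjusted p = 0.0537, edgeR) and SLC6A9 (adjusted p = 0.0516) no longer passed. The log2 fold change was negative for 8 of the 9 and positive for 1, with a median of -0.33 beside 0.0033 over all tested genes. Since these are bulk libraries, fewer cells that express a gene and less RNA of it per cell cannot be told apart.

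The libraries held 26499929 to 31431479 counts. The targeted gene EIF1 had an FPKM of 294, 281 and 281 in NC and of 24.3, 22.7 and 23.5 in siEIF1, which is 8.22% of the NC mean. FPKM scales the fragments of a gene to a gene length and to the mapped fragments of the library. In NC replicate 1, SLC7A5 had 15617 counts and an FPKM of 101, and SLC3A2 had 13072 counts and an FPKM of 62.9. The length behind the FPKM was therefore longer for SLC3A2. Its canonical transcript in GENCODE is shorter, with 1885 bases beside 4556 for SLC7A5. Levels of different genes thus depend on lengths that are not given, while the comparison of groups for the same gene does not. Of 14 markers of retinal pigment epithelium, 12 had an FPKM value and 7 a mean of at least 1. The deposited value of the marker BEST1 was well above this level, while the melanin enzyme TYR was at or near 0. Whether reads of overlapping genes add to the count of a marker was not tested. RPE65 and TTR had no matching row among the genes with counts. The summed FPKM of the 12 was 526 to 546 in NC and 570 to 616 in siEIF1, with the keratins KRT8 and KRT18, which are shared with other epithelia, as the main contributors. Of the 10 tested markers, 3 rose (10.2% of all tested genes did), 0 fell (10.4%) and 7 did not pass. KRT8 and KRT18 had log2 fold changes of 0.24 (adjusted p = 0.0095, edgeR) and 0.25 (adjusted p = 0.00442). BEST1, a chloride channel of this epithelium, had an FPKM of 70.8, 66.6 and 60.5 in NC and of 62.1, 55.0 and 38.8 in siEIF1 (log2 fold change -0.32, SE 0.131, adjusted p = 0.106, edgeR). RLBP1, a retinoid-binding protein, rose from 0.27, 0.17 and 0.27 to 0.69, 0.62 and 0.73 (log2 fold change 1.55, SE 0.262, adjusted p = 0.00102, edgeR). The part of these shifts in the transporter result was not tested. Summed FPKM stayed between 0.14 and 0.26 for 5 endothelial markers, between 0.85 and 0.99 for 4 leukocyte markers and between 2.04 and 2.84 for 4 photoreceptor markers. Each sum came mostly from a single gene, KDR, CD68 and PDE6B (1.78 to 2.54 FPKM), respectively.

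In NC, the order of the transporters by mean FPKM was SLC7A5, SLC3A2, SLC38A1, SLC7A1, SLC1A4, SLC7A6, SLC6A9, SLC1A5, SLC43A1 and SLC38A2. Neighbours in this order were separated in all 3 libraries except SLC1A4 (5.34 ± 0.491, SD, n = 3) and SLC7A6 (5.33 ± 0.0985, SD, n = 3), whose FPKM values overlapped. The pair that forms LAT1-4F2hc led the list, and SLC7A5 and SLC3A2 together made up 75.2% ± 1.34 (SD, n = 3) of the summed FPKM of the 10 genes. In siEIF1 the pair still led with 73.4% ± 1.28 (SD, n = 3). This order and these shares depend on the gene lengths behind the deposited FPKM, which are not given, and the order under other lengths was not tested. They also take the values of SLC38A2 and SLC1A5 as deposited, and whether the low values of these 2 genes reflect the cells or the counting was not tested. Lower in the siEIF1 order, SLC7A1 (16.98 ± 2.40, SD, n = 3) and SLC38A1 (16.9 ± 1.53, SD, n = 3) overlapped, as did SLC6A9 and SLC1A5, and SLC7A6 stood above SLC1A4 with no overlap. The summed FPKM of the 10 genes was 222, 219.8 and 228 in NC and 171, 170.4 and 192 in siEIF1, so the siEIF1 mean was 79.5% of the NC mean and the groups did not overlap.

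**Figure D1:**
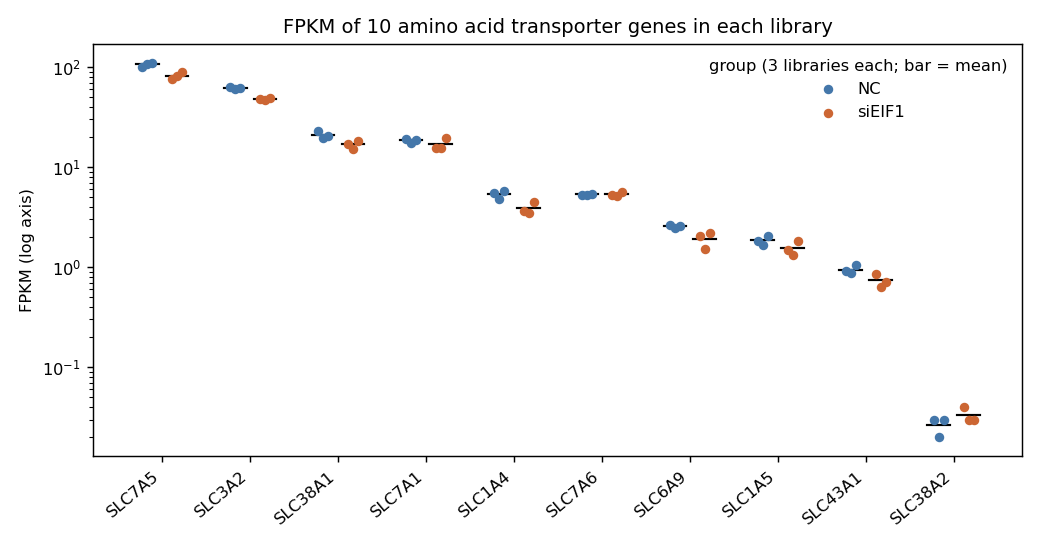
FPKM (log axis) of the 10 amino acid transporter genes in each library, with NC in blue, siEIF1 in orange and a bar at each group mean. SLC7A5 and SLC3A2 stand above the other genes in both groups, and SLC38A2 stands below all others at 0.02 to 0.04.

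Short pieces of the members' promoters are shown because the response to amino acid shortage acts through a DNA element that ATF4 and its C/EBP partners bind. RefSeq promoter windows on GRCh38.p14 (250 bases before to 50 after each annotated start) were matched by symbol, which gave 17 windows for the 10 genes. They were searched on both strands for TGATGNAA, the core of the amino acid response element, and for CACGTG, an E-box that reads the same on both strands. The element core was present in 5 of the 17 windows (29.4%), beside 3.62% of all 35116 windows. It was found in SLC1A4, SLC3A2 and SLC38A1, which fell, and in SLC7A1 and SLC1A5, which did not pass the test. The match begins 7 bases before the start in SLC1A4, 4 bases before it in SLC38A1 and 97 bases before it in SLC1A5, and from base 38 in SLC3A2 and base 8 in SLC7A1 when the start is base 1. Capitals mark the matched letters, read 5′ to 3′ on the strand of the gene, and the SLC1A4 and SLC3A2 matches are on the opposite strand, so they appear as the reverse complement.
SLC1A4, chr2:64989381-64989410: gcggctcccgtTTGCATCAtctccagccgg
SLC3A2, chr11:62881725-62881748: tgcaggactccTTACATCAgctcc
SLC38A1, chr12:46266502-46266531: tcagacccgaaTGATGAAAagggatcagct
SLC7A1, chr13:29595663-29595692: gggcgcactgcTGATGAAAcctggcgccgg
SLC1A5, chr19:46784878-46784937: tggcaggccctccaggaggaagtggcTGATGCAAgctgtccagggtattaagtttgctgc
The SLC1A4, SLC3A2, SLC38A1 and SLC1A5 pieces lie at RefSeq starts inside the GENCODE gene span downstream of its 5′ end, and the SLC7A1 piece spans the annotated 5′ end of the gene. No binding was measured, and a match says only that these letters are there.

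The E-box was present in 3 of the 17 windows (17.6%), beside 7.26% of all windows. It is shown for SLC7A5, the member with the highest deposited FPKM, and for the other members that hold it, SLC43A1 and SLC1A5. It begins 130, 112 and 50 bases before the start, respectively. The SLC7A5 and SLC43A1 pieces lie upstream of the annotated gene, and the SLC1A5 piece lies at a start inside the gene span and in another window than the element core above.
SLC7A5, chr16:87869606-87869663: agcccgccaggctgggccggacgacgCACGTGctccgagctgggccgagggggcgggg
SLC43A1, chr11:57515783-57515840: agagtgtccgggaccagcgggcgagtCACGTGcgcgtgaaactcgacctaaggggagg
SLC1A5, chr19:46787312-46787369: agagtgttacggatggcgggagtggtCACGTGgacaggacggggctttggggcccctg
Neither string was found in the windows of SLC6A9, which fell, or of SLC7A6 and SLC38A2.

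Both genes of the LAT1-4F2hc pair fell. SLC7A5 (ENSG00000103257.9, chr16:87830023-87869507, reverse strand, coordinates of GENCODE release 44 on GRCh38 here and below) is the light chain that binds and exchanges large neutral amino acids. Its FPKM was 101, 108 and 110.5 in NC replicates 1 to 3 and 76.6, 80.5 and 89.2 in siEIF1 replicates 1 to 3. All siEIF1 libraries were below all NC libraries. The log2 fold change was -0.35 (SE 0.058, adjusted p = 7.82e-04, edgeR), and 9.14% of all tested genes had a lower one. SLC3A2 (ENSG00000168003.18, chr11:62856004-62888880, forward strand), the heavy chain, had an FPKM of 62.9, 59.7 and 62.0 in NC and of 47.9, 47.0 and 49.5 in siEIF1. The siEIF1 libraries were again all lower, and the log2 fold change was -0.33 (SE 0.046, adjusted p = 2.15e-04, edgeR). Both genes passed the test in 15 of 15 settings of the processing.

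The FPKM ratio of SLC3A2 to SLC7A5 was 0.579 ± 0.0388 (SD, n = 3) in NC and 0.588 ± 0.0352 (SD, n = 3) in siEIF1. The size of this and the other FPKM ratios below depends on the gene lengths behind the FPKM, so only the groups are compared. The groups overlapped, and the log2 ratio differed by 0.022 (p = 0.7, two-sided exact permutation test over the 6 libraries, whose smallest possible p is 0.1). The other light chains of SLC3A2 were compared beside SLC7A5. SLC7A6 (y+LAT2; ENSG00000103064.15, chr16:68264516-68301823, forward strand) exchanges cationic for neutral amino acids and had an FPKM of 5.25, 5.30 and 5.44 in NC and of 5.29, 5.10 and 5.65 in siEIF1. The groups overlapped and the log2 fold change was 0.024 (SE 0.051, 95% interval -0.086 to 0.13, adjusted p = 0.794, edgeR). SLC7A5 thus stood at 19.96 ± 0.655 (SD, n = 3) times the FPKM of SLC7A6 in NC and at 15.4 ± 0.753 (SD, n = 3) times in siEIF1, with no overlap between the groups and a log2 difference of -0.38. The exact permutation p was 0.1, the smallest that 3 against 3 libraries can give, and 0.133 after Benjamini-Hochberg adjustment over the 4 ratios compared.

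SLC7A11 (xCT), the cystine-glutamate exchanger and also a partner of SLC3A2, is not among the 10 genes. Its FPKM was 5.71, 4.99 and 5.59 in NC and 4.13, 3.42 and 4.18 in siEIF1, and it fell with a log2 fold change of -0.45 (SE 0.070, adjusted p = 5.49e-04, edgeR). SLC7A8 (LAT2), another exchanger of neutral amino acids, had an FPKM of 0.91, 0.91 and 0.92 in NC and of 1.0, 1.14 and 1.14 in siEIF1. Its log2 fold change was 0.28 (95% interval 0.063 to 0.50, adjusted p = 0.0674, edgeR). SLC7A7 (y+LAT1) stood at 0.10 to 0.18 FPKM with a log2 fold change of -0.41 (95% interval -1.03 to 0.20, adjusted p = 0.354, edgeR), and SLC7A10 had at most 3 counts in any library and was not tested. Over these 6 light chains, the summed FPKM was 118 ± 4.94 (SD, n = 3) in NC and 92.6 ± 6.86 (SD, n = 3) in siEIF1. Divided by the FPKM of SLC3A2, it was 1.92 in both groups (SD 0.113 in NC and 0.103 in siEIF1, n = 3 each). Because the gene lengths are not given, this value is not read as light chain RNAs per heavy chain RNA.

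**Figure D2:**
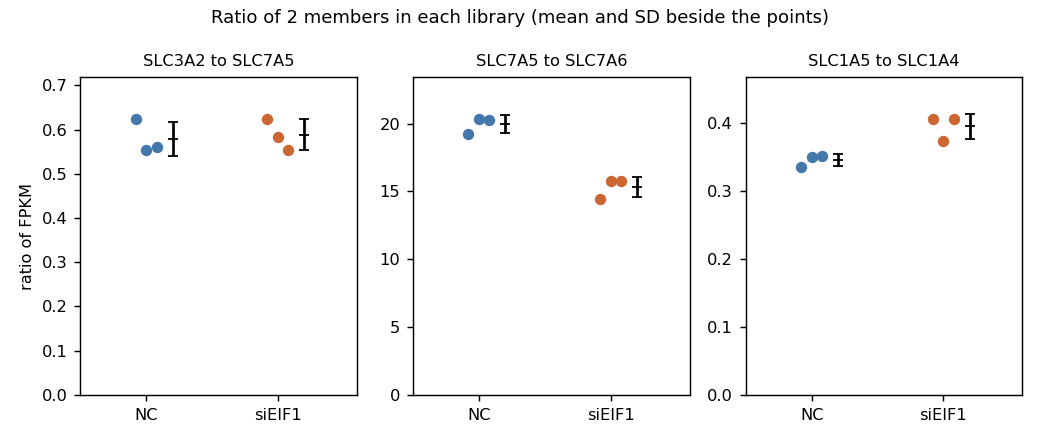
FPKM ratios of 3 member pairs in each library (points) with the group mean and SD beside them, and the axis starting at 0. The SLC3A2 to SLC7A5 ratio overlaps between NC and siEIF1, the SLC7A5 to SLC7A6 ratio is lower in all siEIF1 libraries, and the SLC1A5 to SLC1A4 ratio is higher in all of them.

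Of the sodium-dependent neutral amino acid transporters of the SLC1 family, SLC1A4 fell. SLC1A4 (ASCT1; ENSG00000115902.11, chr2:64988477-65023865, forward strand) carries alanine, serine, cysteine and threonine. Its FPKM was 5.46, 4.80 and 5.76 in NC and 3.67, 3.50 and 4.52 in siEIF1. The groups did not overlap, and the log2 fold change of -0.44 (SE 0.084, adjusted p = 0.00241, edgeR) was the lowest of the 9 tested members, with 6.51% of all tested genes lower still. It passed the test in 15 of 15 settings. SLC1A5 (ASCT2; ENSG00000105281.12, chr19:46774883-46788594, reverse strand), known as a main glutamine carrier of proliferating cells, stood at 1.83, 1.68 and 2.03 FPKM in NC and at 1.49, 1.31 and 1.84 FPKM in siEIF1. The groups overlapped, with the highest siEIF1 library above the lowest NC library. SLC1A5 is also known as widely expressed in cultured cells, and whether its low value reflects these cells or the counting was not tested. With 161 to 230 counts per library, its log2 fold change was -0.24 (SE 0.125, 95% interval -0.51 to 0.035, adjusted p = 0.217, edgeR), and it was -0.15 without siEIF1 replicate 2 and -0.36 without siEIF1 replicate 3. The FPKM ratio of SLC1A5 to SLC1A4 was 0.346 ± 0.00935 (SD, n = 3) in NC and 0.396 ± 0.0186 (SD, n = 3) in siEIF1. This ratio did not overlap between the groups, and its log2 difference was 0.19 (exact permutation p = 0.1, adjusted 0.133).

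The sodium-coupled neutral amino acid transporters of the SLC38 family had very different counts. SLC38A1 (SNAT1; ENSG00000111371.16, chr12:46183063-46270017, reverse strand), which imports glutamine, had an FPKM of 23.1, 19.4 and 20.3 in NC and of 17.2, 15.3 and 18.3 in siEIF1. The siEIF1 libraries were all below the NC libraries, although NC replicate 2 and siEIF1 replicate 3 were close. Its log2 fold change was -0.29 (SE 0.068, adjusted p = 0.00876, edgeR), and it passed the test in 14 of 15 settings, the exception being without siEIF1 replicate 2. SLC38A2 (SNAT2; ENSG00000134294.14, chr12:46358188-46372773, reverse strand) is the member of this family best known for induction by amino acid shortage. It had 7, 5 and 6 counts in NC and 9, 8 and 8 in siEIF1, or 0.02 to 0.04 FPKM, and did not pass the filter on low counts. Without the filter its log2 fold change was 0.35 (SE 0.559, 95% interval -0.75 to 1.44, adjusted p = 0.760, edgeR), so a difference was not detectable at this depth. The FPKM ratio of SLC38A2 to SLC38A1 was 0.00127 in NC and 0.00198 in siEIF1 (exact permutation p = 0.1, adjusted 0.133), and it rests on these few counts. Of 186 windows of 150 bases along the canonical SLC38A2 transcript, 173 aligned to GRCh38. Of these, 0 also aligned on another sequence or far away on the same one. Second alignments nearby, where SLC38A1 lies, were not counted. SLC38A2 is known as widely expressed in cultured cells, and whether its few counts reflect the level in these cells or the way reads were counted was not tested, so SLC38A2 is not called unexpressed here.

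SLC7A1 (CAT1; ENSG00000139514.13, chr13:29509414-29595688, reverse strand) is the main carrier of arginine and lysine in many cells. It had an FPKM of 19.2, 17.5 and 18.7 in NC and of 15.6, 15.6 and 19.8 in siEIF1. In siEIF1, replicates 1 and 2 were below all NC libraries and replicate 3 was above them. The log2 fold change was -0.10 (SE 0.072, 95% interval -0.26 to 0.053, adjusted p = 0.358, edgeR), and without siEIF1 replicate 3 it was -0.21 (adjusted p = 0.00884, edgeR). It was -0.046 without siEIF1 replicate 1 and -0.061 without siEIF1 replicate 2.

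SLC6A9 (GlyT1; ENSG00000196517.13, chr1:43991500-44031467, reverse strand), the sodium- and chloride-dependent glycine transporter, fell with a wide spread in siEIF1. Its FPKM was 2.65, 2.48 and 2.56 in NC and 2.06, 1.51 and 2.18 in siEIF1. The groups did not overlap, and siEIF1 replicate 2 was the lowest library. Its log2 fold change was -0.40 (SE 0.106, adjusted p = 0.0165, edgeR), and it passed the test in 11 of 15 settings. It did not pass without NC replicate 1 (adjusted p = 0.0650, edgeR), without siEIF1 replicate 2, or with limma on either FPKM scale (adjusted p = 0.0660 and 0.0671). SLC43A1 (LAT3; ENSG00000149150.9, chr11:57484534-57515780, reverse strand), a facilitative carrier of large neutral amino acids, had an FPKM of 0.91, 0.87 and 1.05 in NC and of 0.86, 0.64 and 0.71 in siEIF1. Its groups did not overlap but nearly touched, as the highest siEIF1 library had 3.76 CPM (counts scaled to library size) and the lowest NC library 3.79 CPM. The log2 fold change was -0.33 (SE 0.152, 95% interval -0.66 to -0.00091, adjusted p = 0.152, edgeR), on 83 to 126 counts per library. With SLC43A1, 6 of the 9 tested transporters had all siEIF1 libraries below all NC libraries in CPM, and 0 had them all above. The shares among all tested genes were 18.9% and 18.2%.

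**Figure D3:**
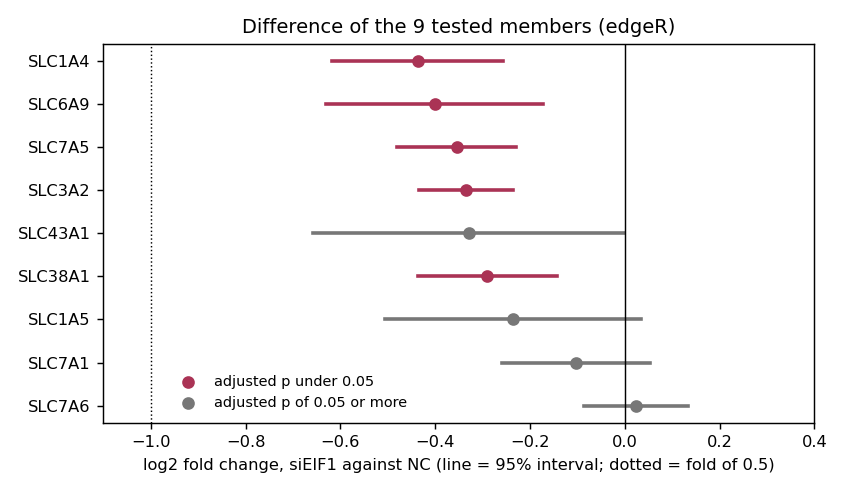
Log2 fold change of the 9 tested members, siEIF1 against NC, with 95% intervals from edgeR. The 5 genes in red had an adjusted p under 0.05, and all 9 lie to the right of the dotted line at a fold of 0.5.

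Reads of some members could be shared with other genes. SLC7A6 overlaps SLC7A6OS on the opposite strand over 17321 bases, and SLC6A9 overlaps CCDC24 over 5029 bases. These neighbours had log2 fold changes of 0.048 and -0.097, with an adjusted p of 0.690 and 0.574 (edgeR). The libraries were strand-specific, but whether the counting used strand is not given in the sources used here. Of the transcript windows of 150 bases, 9 of 177 from SLC7A5 also aligned on another sequence of GRCh38 or far away on the same one. From each of the other members 0 did, and second alignments nearby were not counted. The copies SLC7A5P1 and SLC7A5P2 were not analysed here.

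Few amino acid transporters of the plasma membrane and lysosome outside the 10 genes passed the test. Of 40 listed genes, 30 had counts and 19 were tested, of which 2 rose, 1 fell and 16 did not pass, with a median log2 fold change of 0.0076. The shares were 10.5% higher and 5.26% lower, beside 10.2% and 10.4% of all tested genes, so nothing is read from them about the list. SLC43A2 (LAT4), a facilitative carrier of the same family as SLC43A1, rose from an FPKM of 0.32, 0.37 and 0.38 in NC to 0.63, 0.60 and 0.68 in siEIF1 (log2 fold change 0.85, SE 0.111, adjusted p = 1.44e-04, edgeR). SLC38A10, a member of the SNAT family, rose from 6.41, 6.44 and 6.71 to 7.42, 7.03 and 7.74 (log2 fold change 0.20, SE 0.048, adjusted p = 0.00950, edgeR). The gene that fell was SLC7A11, described above. Without NC replicate 2 the number that fell was 2, and with limma the number that rose was 1. Across all 202 other solute carrier genes that were tested, whatever they carry, 24 rose (11.9%), 21 fell (10.4%) and 157 did not pass, and the median was 0.016, so the shares were near those of all tested genes.

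Of 12 carriers that move amino acids across the mitochondrial inner membrane, 10 were tested, 1 rose (10.2% of all tested genes did), 0 fell (10.4%) and 9 did not pass. SFXN3, a sideroflexin of the family that carries serine, had an FPKM of 16.2, 18.2 and 17.6 in NC and of 21.5, 20.8 and 21.8 in siEIF1 (log2 fold change 0.32, SE 0.052, adjusted p = 7.16e-04, edgeR). The number that rose was 2 without NC replicate 1, and 1 fell without siEIF1 replicate 3. The median of the 10 was 0.029.

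Downstream of the transporters are the genes that report amino acids to mTORC1. Of 38 listed, 37 were tested, 6 rose, 2 fell and 29 did not pass, with a median log2 fold change of 0.022. The shares were 16.2% higher and 5.41% lower, beside 10.2% and 10.4% of all tested genes, and nothing is read from them about the list. SESN2, a leucine-sensing inhibitor that is itself a target of ATF4, had an FPKM of 35.2, 30.1 and 32.7 in NC and of 22.2, 19.0 and 24.7 in siEIF1 (log2 fold change -0.56, SE 0.075, adjusted p = 1.94e-04, edgeR). RHEB, the GTPase that activates mTORC1, had a log2 fold change of -0.29 (SE 0.059, adjusted p = 0.00313, edgeR) and is named because few genes fell. Among those that rose were TSC2, which inactivates RHEB (log2 fold change 0.27, SE 0.052, adjusted p = 0.00285, edgeR), and CASTOR2, of the family of arginine sensors (0.61, SE 0.120, adjusted p = 0.00297). CASTOR2 has near-identical copies in the genome and its count is uncertain. The number that rose was 4 with DESeq2, RLE or upper-quartile normalization, without the filter, and without NC replicate 1 or siEIF1 replicate 1. It was 3 without NC replicate 2, 2 without NC replicate 3 and 3 without siEIF1 replicate 2. It was 8 without siEIF1 replicate 3 and 1 with limma on either FPKM scale.

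The amino acid response genes outside the transporters were given for the same libraries because many members are targets of that pathway. Of 15 genes of the GCN2-ATF4 list, 9 fell, 1 rose and 5 did not pass, with a median log2 fold change of -0.35. The shares were 60% lower and 6.67% higher, beside 10.4% and 10.2% of all tested genes. DDIT3 (CHOP), a stress-induced transcription factor, had an FPKM of 85.8, 74.6 and 76.1 in NC and of 44.5, 41.5 and 44.7 in siEIF1 (log2 fold change -0.84, SE 0.058, adjusted p = 8.97e-07, edgeR). CHAC1, which degrades glutathione, and CEBPB, a C/EBP factor, had log2 fold changes of -0.78 (SE 0.087, adjusted p = 4.42e-05, edgeR) and -0.53 (SE 0.050, adjusted p = 9.55e-06). The single gene that rose was ATF4 itself, with an FPKM of 238, 235 and 238 in NC and of 279, 281 and 267 in siEIF1 (log2 fold change 0.24, SE 0.051, adjusted p = 0.00513, edgeR). The list was chosen with earlier results of these data known, so its direction is not independent evidence.

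**Figure D4:**
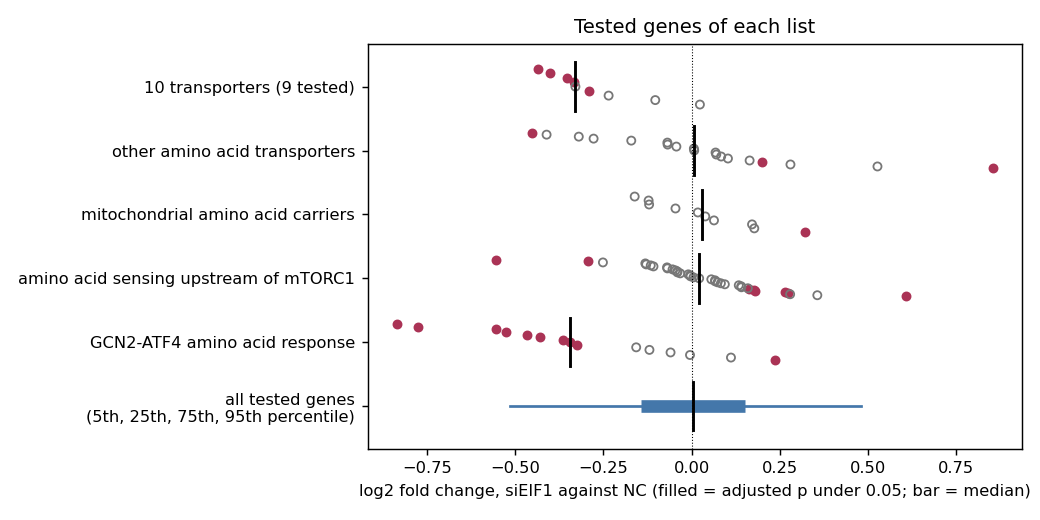
Log2 fold change, siEIF1 against NC, of every tested gene of 5 lists (filled where the adjusted p was under 0.05, bar at the median) above the spread of all tested genes, whose thick bar covers the middle 50% of genes. The medians of the transporters (-0.33) and of the GCN2-ATF4 list (-0.35) lie left of 0, and those of the other lists lie near 0.

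The 9 tested members differed in how far their values moved with the processing, which covered other normalizations and filters, DESeq2, limma, a replicate block and leaving out each library. SLC7A5 ranged from -0.40 to -0.31, SLC3A2 from -0.35 to -0.32 and SLC1A4 from -0.54 to -0.38 on the log2 scale. SLC38A1 ranged from -0.34 to -0.21, SLC6A9 from -0.49 to -0.27 and SLC43A1 from -0.46 to -0.16. SLC1A5 ranged from -0.36 to -0.15 and SLC7A1 from -0.21 to -0.046. SLC7A6 alone changed sign, between -0.0021 and 0.040.

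**Figure D5:**
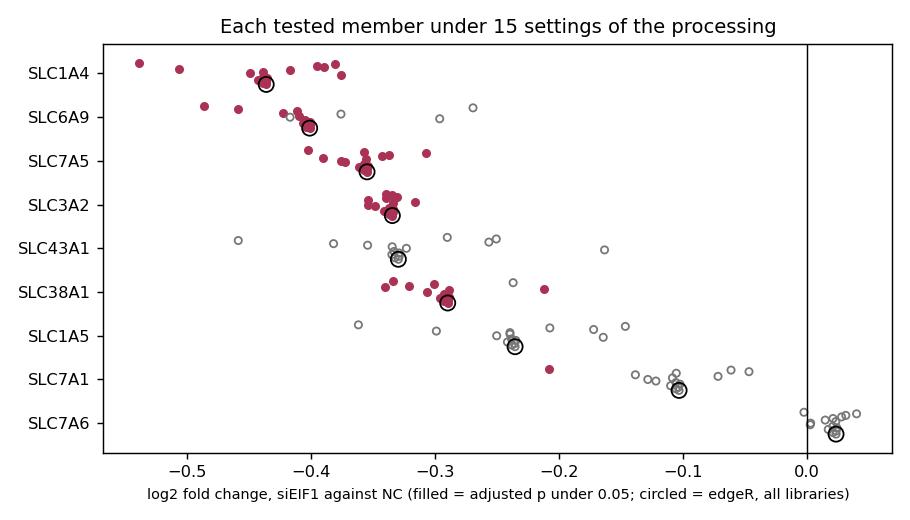
Log2 fold change, siEIF1 against NC, of each tested member under 15 settings of the processing, filled where the adjusted p was under 0.05 and circled for the edgeR fit on all libraries. SLC7A5, SLC3A2 and SLC1A4 are filled in all 15, SLC38A1 in 14, SLC6A9 in 11 and SLC7A1 in 1.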

How the data were processed

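Gene-level RNA-seq of 6 ARPE-19 libraries (3 NC, 3 siEIF1, grouped by sample title) was analysed. The authors dropped reads with more than 2 undetermined bases, trimmed them with FASTX-Toolkit, removed short ones and used HISAT2 for alignment to GRCh38. The counts deposited by the authors are uniquely mapped reads per gene without normalization, and the FPKM values the authors deposited (30275 genes) scale them by length and depth. The counting program, strand setting, annotation release and gene lengths are not given in the sources used here. All columns were matched to a library (0 unmatched).

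Counts were tested with edgeR 4.0.16 in R 4.3.3 (TMM, filterByExpr, quasi-likelihood test, Benjamini-Hochberg adjustment over 16749 genes) without a replicate block. CPM values were counts scaled to TMM library sizes. The standard error was derived from the F statistic. Precision is limited by counting error for members with few counts and by 3 libraries per group throughout. FPKM ratios were compared by two-sided exact permutation tests (scipy 1.17.1). Windows of 150 bases of canonical transcripts (GENCODE release 44) were aligned with minimap2 2.31. Promoters came from RefSeq on GRCh38.p14.

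Alternatives were RLE and upper-quartile normalization, no filter, at least 10 counts in every library, DESeq2 1.42.0, limma 3.58.1 on log2(FPKM + 1) and log2(FPKM + 0.1), other adjusted p thresholds (0.01 and 0.1), a replicate block, and leaving out each library. With a library left out, edgeR pools the spread of the remaining 5. The edgeR test was tested on simulated data first. Named are EIF1, the 10 members, the light chains of SLC3A2, and from each other list up to 3 tested genes with the smallest p, other genes being named after their values were seen. The members and lists were chosen with earlier results of these data known. SESN2 is on 2 lists, as is SLC38A9. 1 listed sensing gene had no matching row. Protein sequences were not analysed here.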

Additional observations from a re-analysis of the deposited data

How the results depend on the processing

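The precision of SLC38A2, SLC43A1 and SLC1A5 is limited by their low counts. With 1 siRNA sequence per group and high glucose throughout, effects of that sequence other than on EIF1 cannot be told apart from those of EIF1, and the response at normal glucose was not analysed here.

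SLC7A5, SLC3A2 and SLC1A4 kept their direction and passed the threshold under every alternative run. Leaving out 1 library at a time, the transporters that fell numbered 3 to 6 and their median log2 fold change ranged from -0.34 to -0.25. For the other amino acid transporters, 2 to 3 rose and 1 to 2 fell. For mitochondrial carriers, 1 to 2 rose and 0 to 1 fell, and for the mTORC1 list 2 to 8 rose. The log2 ratio difference of SLC3A2 to SLC7A5 ranged from -0.023 to 0.076 and so changed sign, being -0.011 without NC replicate 2 and -0.00045 without NC replicate 3. The log2 fold change of SLC7A6 ranged from -0.0021, without siEIF1 replicate 3, to 0.040. With limma on log2(FPKM + 1) and on log2(FPKM + 0.1), 1 of the other amino acid transporters and 1 gene of the mTORC1 list rose. Without the filter on low counts, 2 of the other transporters fell. The cause of these shifts was not tested.

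The replicate numbers were checked for pairing. Deviations from the group means of libraries with the same number correlated with r of 0.149, 0.0946 and 0.128 for replicates 1, 2 and 3. Libraries with different numbers were not compared, so these values cannot decide whether the numbers pair the libraries. The main test used no block. With the replicate block, 2128 genes fell and 2149 rose, beside 1744 and 1702 without it. Under the block 2 of the other transporters fell, and of the mitochondrial carriers 3 rose and 1 fell.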
